A study of Mus musculus with 8 samples.

Results

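Day 3 was compared with Day 0 in cultured mouse oligodendrocyte progenitor cells (OPCs), to set the dividing progenitor against the oligodendrocyte (OL) it becomes. The comparison covered each gene that reached 1 FPKM in at least 2 of the 8 libraries, which kept 12208 of the 23427 genes in the table, and 4 of the 8 libraries belong to these days (2 on Day 0 and 2 on Day 3). The cells were wild-type C57BL/6J primary OPCs, isolated by immunopanning with a PDGFRα antibody from pooled cortex of 3 pups aged 7 days and grown in medium with PDGF-AA and CNTF. Day 0 is the proliferating culture, and Day 3 is the culture 3 days after PDGF-AA was withdrawn and the thyroid hormone T3 (40 ng/mL) was added. The replicates are described as independent experiments. FPKM is the fragment count of a gene scaled for transcript length and library size. The labels and the methods describe the growth medium differently. The labels name DMEM with fetal bovine serum, and the methods, followed here, a defined medium with PDGF-AA and CNTF. Strand-aware counting is not stated, which leaves values of genes that overlap a neighbour on the opposite strand uncertain. Such overlaps are pointed out below for some genes only. Others have them too, among them *Acsl5* with *Zdhhc6*, *Nusap1* with *Oip5* and *Kif20a* with *Cdc23*. *Fgfr2* overlaps *Ctbp2* on the same strand.

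OPCs divide as long as PDGF-AA engages their receptor PDGFRα. When the mitogen is removed and T3 engages its nuclear receptors, the cells leave the cell cycle, extend branched processes along microtubules, take actin filaments apart as the membrane spreads, and load that membrane with cholesterol, galactolipids and long fatty acids. The largest changes of this transition, in myelin protein and mitotic cyclin genes, are well known, and the genes below them are ordered here by what they do: transcription factors, receptors and channels, metabolism and the cytoskeleton.

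The libraries held about 950000 to 1530000 fragments, read from the steps between low FPKM values, and both Day 3 libraries were the shallowest. Low FPKM values therefore stand for few fragments. Of the genes tested, 1460 (12.0%) were called higher on Day 3 and 3207 (26.3%) lower, with limma on log2(FPKM + 1) and a Benjamini-Hochberg adjusted p under 0.05. Fold changes are differences of log2(FPKM + 1), Day 3 minus Day 0, given with their standard error, and they understate the change of low genes. Between days, fewer cells of a type and less RNA per cell cannot be told apart. The excess of lower calls moved with the scaling. The median log2 fold change of all genes was -0.31, and it was -0.04 after median ratio scaling, which sets the median gene of each library level. That scaling gave 2138 higher (17.5%) and 2042 lower (16.7%). The genes described with values below were called in the same direction under each of 4 scalings unless stated otherwise. In all 4667 called genes the Day 0 and Day 3 libraries did not overlap. Each pair of libraries with the same replicate number therefore had to move in the called direction. A call favours genes whose days lie apart, so the lack of overlap is no separate check of the calls.

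Marker genes moved with the labelled days. Of 29 myelin protein genes tested, 25 were called higher, and of 23 progenitor markers 18 were called lower. *Cspg4*, which encodes the progenitor proteoglycan NG2, read 51.3 and 65.7 FPKM on Day 0 and 1.02 and 0.778 FPKM on Day 3. Of 60 genes of mitosis and DNA replication, 58 were called lower, with a median log2 fold change of -3.53. Of 13 astrocyte markers none was at 0, and their summed level was 162.9 and 459.1 FPKM on Day 0 and 193.5 and 1054 FPKM on Day 3 (replicate 1 and 2), with 2 called higher and 1 lower, or 6 and 1 with the replicate number as a block. *Gfap*, the astrocyte filament, was 14.7 and 153.9 FPKM on Day 0 and 45.5 and 602.8 FPKM on Day 3, so replicate 2 stood far above replicate 1 on both days. Of 14 neuron markers 7 were tested, with 1 called higher and 3 lower, and a median log2 fold change of -1.1. The summed level of the 14 was 87.5 and 50.9 FPKM on Day 0 and 240.6 and 119.8 FPKM on Day 3. The tubulin gene *Tubb3* alone read 60.2 and 20.8 FPKM on Day 0 and 230.9 and 112.7 FPKM on Day 3. The summed level therefore does not describe most of these markers. The call of *Tubb3* was lost without Day 0 replicate 2 or Day 3 replicate 1. The part of astrocytes and neurons in the changes below was not tested. Listed at 0 on both days were 12 of 14 microglial markers, among them *Aif1*, *Cx3cr1* and *Csf1r*, and 8 of 12 endothelial markers, among them *Cldn5* and *Cdh5*. The same held for 8 of 13 mural and fibroblast markers, among them *Rgs5*, and for 5 of the 14 neuron markers, among them *Slc17a7*, *Gad1* and *Gad2*.

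The 4 classes hold 32 lists with 1342 genes tested, of which 248 were called higher and 427 lower. Leaving out 1 library at a time lowered these counts to between 178 and 245 higher and between 262 and 425 lower, with the lowest values without Day 0 replicate 1. Brackets after the counts of a list hold those by median ratio scaling and the fewest that any 1 left-out library gave. Each of these fewest counts was reached without a Day 0 library or Day 3 replicate 2, and some also without another library. All counts are to be read against the shares over all genes tested. These were 12.0% higher and 26.3% lower, or 17.5% and 16.7% with median ratio scaling.

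**Figure D1:**
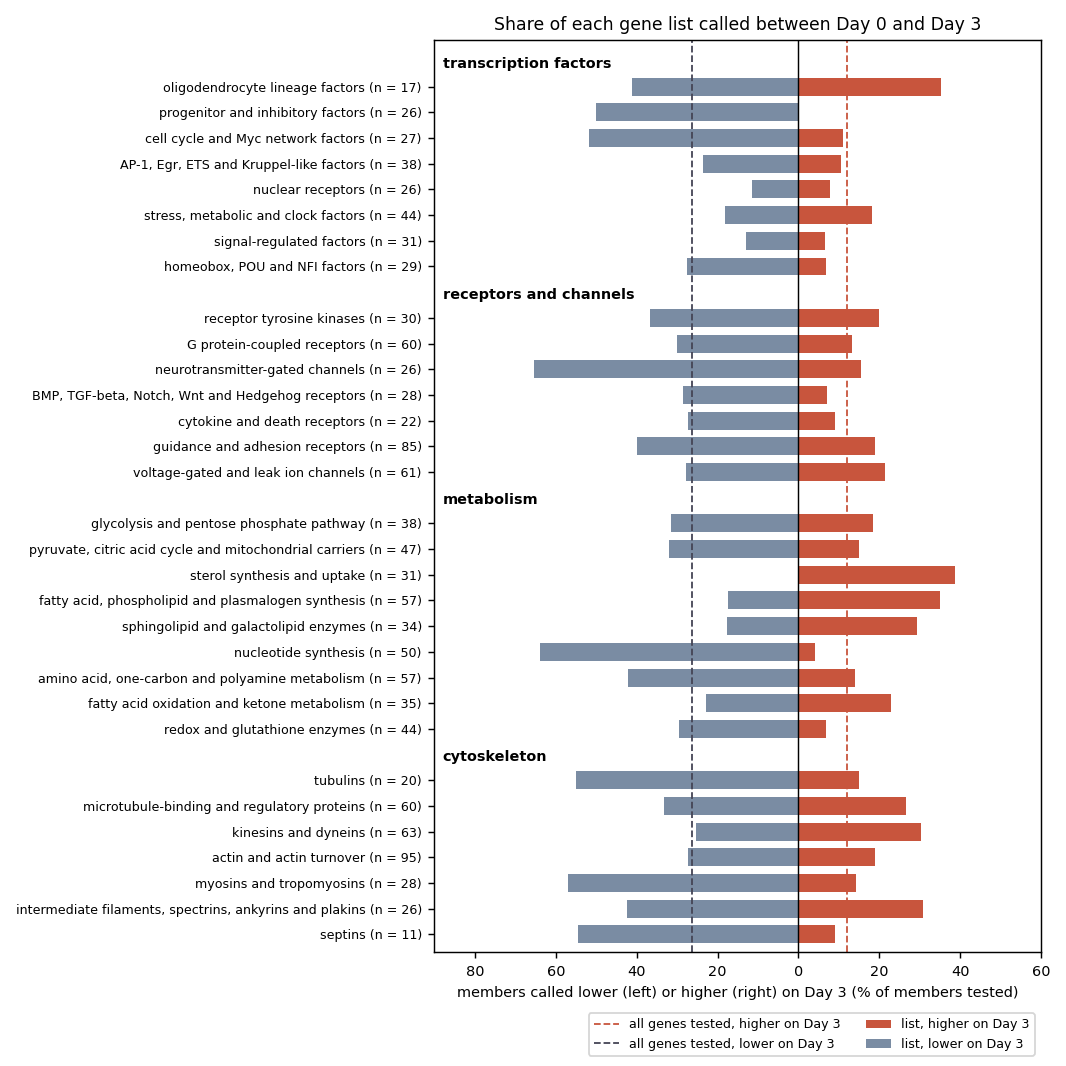
Share of the tested members of 31 lists called higher on Day 3 (right, red) or lower (left, blue), in percent, with n the number of members tested and dashed lines at the share over all genes (12.0% higher and 26.3% lower). Sterol synthesis reached to the right only, with 12 of 31 called higher and 0 lower, while nucleotide synthesis, neurotransmitter-gated channels and progenitor factors lay mainly to the left.

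Of 238 transcription factors tested, 27 were called higher and 66 lower, or 43 and 48 with median ratio scaling. Without that scaling the shares of this class lay close to the 12.0% higher and 26.3% lower of all genes tested. Among the oligodendrocyte lineage factors, 6 of 17 members tested were called higher and 7 lower (8 and 5 by median ratio, at least 5 and 4 with 1 library out). *St18*, a zinc finger factor of the Myt family (chromosome 1, 6487231 to 6860940 on the plus strand of GRCm38), read 0.685 and 0.856 FPKM on Day 0 and 17.3 and 15.2 FPKM on Day 3 (log2 fold change 3.28 ± 0.27, adjusted p = 0.000125). Both Day 0 libraries were below 1 FPKM, and both Day 3 libraries were above 15 FPKM. Its relative *Myt1* went the other way, from 56.0 and 57.9 FPKM to 23.7 and 14.7 FPKM (-1.56 ± 0.23, adjusted p = 0.00121). The zinc finger gene *Zfp536* read 2.37 and 2.03 FPKM on Day 0 and 25.8 and 31.5 FPKM on Day 3 (3.21 ± 0.34, adjusted p = 0.000285). *Gm98*, the name in the table for the myelin regulatory factor *Myrf*, read 56.1 and 63.9 FPKM on Day 0 and 327 and 308 FPKM on Day 3 (2.38 ± 0.19, adjusted p = 0.000121). It was chosen after its values were seen, as were the next 3 genes. *Olig1*, a basic helix-loop-helix factor of the whole lineage, read 830.5 and 936 FPKM on Day 0 and 381 and 422 FPKM on Day 3 (-1.14 ± 0.16, adjusted p = 0.00103). Its partner *Olig2* read 254 and 263 FPKM on Day 0 and 147 and 122 FPKM on Day 3 (-0.94 ± 0.15, adjusted p = 0.00164). *Sox10*, which the lineage needs throughout, read 379.6 and 375 FPKM on Day 0 and 505 and 367 FPKM on Day 3 and was not called (adjusted p = 0.388). It was called higher by median ratio scaling (adjusted p = 0.0363) and by quantile normalization (adjusted p = 0.00527).

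Of the progenitor and inhibitory factors, 0 of 26 members tested were called higher and 13 lower (0 and 9 by median ratio, at least 0 and 7 with 1 library out). At an unadjusted p under 0.05, limma put 0 higher and 14 lower. Their median log2 fold change was -0.86 against -0.31 for all genes. *Hes5*, a Notch target that holds back differentiation, read 34.8 and 17.9 FPKM on Day 0 and 2.88 and 0.820 FPKM on Day 3 (-3.29 ± 0.52, adjusted p = 0.00183). *Sox11*, a SOX factor of neural progenitors, read 49.9 and 38.0 FPKM on Day 0 and 6.94 and 4.57 FPKM on Day 3 (-2.74 ± 0.26, adjusted p = 0.000187). *Sox3*, of another SOX group, read 23.7 and 27.6 FPKM on Day 0 and 1.33 and 4.04 FPKM on Day 3 (-2.95 ± 0.38, adjusted p = 0.000683). Not all members of these families were called. *Sox6*, which was called lower, read 79.4 and 93.5 FPKM on Day 0 and 17.3 and 9.18 FPKM on Day 3 (-2.68 ± 0.37, adjusted p = 0.001). *Hes6*, not called, read 17.1 and 16.5 FPKM on Day 0 and 17.2 and 15.6 FPKM on Day 3 (adjusted p = 0.916), and *Sox4*, also not called, read 91.6 and 97.1 FPKM on Day 0 and 136 and 82.7 FPKM on Day 3 (adjusted p = 0.627). These 3 genes were chosen after their values were seen.

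In the cell cycle and Myc network, 3 of 27 members tested were called higher and 14 lower (6 and 12 by median ratio, at least 1 and 10 with 1 library out). *Foxm1*, which drives the genes of mitosis, read 58.2 and 44.1 FPKM on Day 0 and 2.10 and 1.20 FPKM on Day 3 (-4.31 ± 0.40, adjusted p = 0.000172). *E2f7*, an E2F family member, read 14.5 and 11.5 FPKM on Day 0 and 0.167 and 0.762 FPKM on Day 3 (-3.28 ± 0.41, adjusted p = 0.000559). *Myc* itself was chosen after its values were seen and was at 59.8 and 84.6 FPKM on Day 0 and 15.7 and 8.28 FPKM on Day 3 (-2.54 ± 0.31, adjusted p = 0.000539). The MXD proteins compete with MYC for their common partner MAX, and their genes parted. *Mxd3*, the member linked to proliferating cells, was at 29.1 and 18.3 FPKM on Day 0 and was listed at 0 in both Day 3 libraries (adjusted p = 0.000258). It overlaps *Prelid1* on the other strand. *Mxd1*, *Mxd4* and *Mxi1* were higher on Day 3, with log2 fold changes of 0.96 ± 0.25, 0.96 ± 0.24 and 0.90 ± 0.20 (adjusted p of 0.0167, 0.0149 and 0.00788). The call of *Mxd1* was lost without Day 0 replicate 1 or Day 3 replicate 2 (adjusted p = 0.109 and 0.0903). That of *Mxd4* was lost without Day 0 replicate 1, Day 3 replicate 1 or Day 3 replicate 2 (adjusted p = 0.0948, 0.0613 and 0.0544), and that of *Mxi1* without Day 0 replicate 2 (adjusted p = 0.0597).

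Of the AP-1, Egr, ETS and Kruppel-like list, 4 of 38 members tested were called higher and 9 lower (8 and 9 by median ratio, at least 2 and 4 with 1 library out). These shares, 10.5% and 23.7%, lay near the 12.0% and 26.3% of all genes tested. *Etv5*, an ETS gene that follows receptor tyrosine kinase signalling, read 74.0 and 75.9 FPKM on Day 0 and 7.20 and 8.47 FPKM on Day 3 (-3.11 ± 0.26, adjusted p = 0.00013). Its relative *Etv1* read 47.7 and 43.4 FPKM on Day 0 and 7.25 and 3.30 FPKM on Day 3 (-2.96 ± 0.47, adjusted p = 0.00181). *Klf9*, a Kruppel-like gene that thyroid hormone induces in neural cells, read 11.6 and 13.5 FPKM on Day 0 and 33.7 and 33.3 FPKM on Day 3 (1.35 ± 0.19, adjusted p = 0.00103). Its relative *Klf13* read 39.5 and 29.8 FPKM on Day 0 and 97.3 and 97.3 FPKM on Day 3 (1.48 ± 0.20, adjusted p = 0.000874). In both genes every Day 3 library was above every Day 0 library, which the rule for named rises required. *Fos*, an immediate early gene chosen after its values were seen, read 28.3 and 26.5 FPKM on Day 0 and 34.6 and 33.4 FPKM on Day 3 and was not called (adjusted p = 0.397).

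Of the nuclear receptors, 2 of 26 members tested were called higher and 3 lower (2 and 2 by median ratio, at least 1 and 0 with 1 library out), and 5 were called lower with the replicate number as a block. The shares without the block, 7.69% and 11.5%, were below the 12.0% and 26.3% of all genes tested. *Thra*, the thyroid hormone receptor alpha gene and so the receptor gene of the hormone added, read 45.3 and 46.8 FPKM on Day 0 and 179.6 and 174 FPKM on Day 3 (1.92 ± 0.22, adjusted p = 0.000394). *Thra* and *Nr1d1* overlap at their ends on opposite strands. Of the stress, metabolic and clock factors, 8 of 44 members tested were called higher and 8 lower (9 and 4 by median ratio, at least 4 and 3 with 1 library out). *Nfe2l3*, a leucine zipper factor of the Nrf family (chromosome 6, 51432670 to 51458768 on the plus strand of GRCm38), read 1.28 and 1.92 FPKM on Day 0 and 30.3 and 31.6 FPKM on Day 3 (3.63 ± 0.35, adjusted p = 0.000202). *Tfeb*, the regulator of lysosome genes, read 6.43 and 3.94 FPKM on Day 0 and 42.1 and 34.9 FPKM on Day 3 (2.70 ± 0.24, adjusted p = 0.000151). *Creb3l2*, a membrane-bound factor of the secretory pathway, read 8.64 and 6.63 FPKM on Day 0 and 30.4 and 24.2 FPKM on Day 3 (1.71 ± 0.23, adjusted p = 0.000874). *Hif1a*, the hypoxia factor, read 93.2 and 93.6 FPKM on Day 0 and 50.5 and 46.5 FPKM on Day 3 (-0.93 ± 0.16, adjusted p = 0.00273). Of the signal-regulated factors, 2 of 31 members tested were called higher and 4 lower (5 and 2 by median ratio, at least 1 and 1 with 1 library out). *Smad7*, the intracellular brake on BMP and TGF-beta signalling, went from 1.76 and 2.20 FPKM to 24.4 and 31.7 FPKM (3.28 ± 0.28, adjusted p = 0.000132). The interferon factor *Irf1* went from 9.15 and 11.8 FPKM to 1.72 and 2.99 FPKM (-1.79 ± 0.29, adjusted p = 0.0019). Of the homeobox, POU and NFI factors, 2 of 29 members tested were called higher and 8 lower (5 and 5 by median ratio, at least 0 and 4 with 1 library out). *Zeb1* read 77.8 and 82.2 FPKM on Day 0 and 18.3 and 10.6 FPKM on Day 3 (-2.44 ± 0.35, adjusted p = 0.00115). Its paralog *Zeb2*, required for myelination and chosen after its values were seen, read 52.8 and 46.1 FPKM on Day 0 and 93.0 and 88.8 FPKM on Day 3 (0.87 ± 0.15, adjusted p = 0.00273). *Pou3f2*, a POU factor of neural progenitors, read 18.6 and 14.8 FPKM on Day 0 and 3.22 and 2.50 FPKM on Day 3 (-2.20 ± 0.30, adjusted p = 0.000895). *Nfib*, a factor of glial development, read 31.9 and 24.1 FPKM on Day 0 and 5.87 and 7.06 FPKM on Day 3 (-1.95 ± 0.32, adjusted p = 0.00222).

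**Figure D2:**
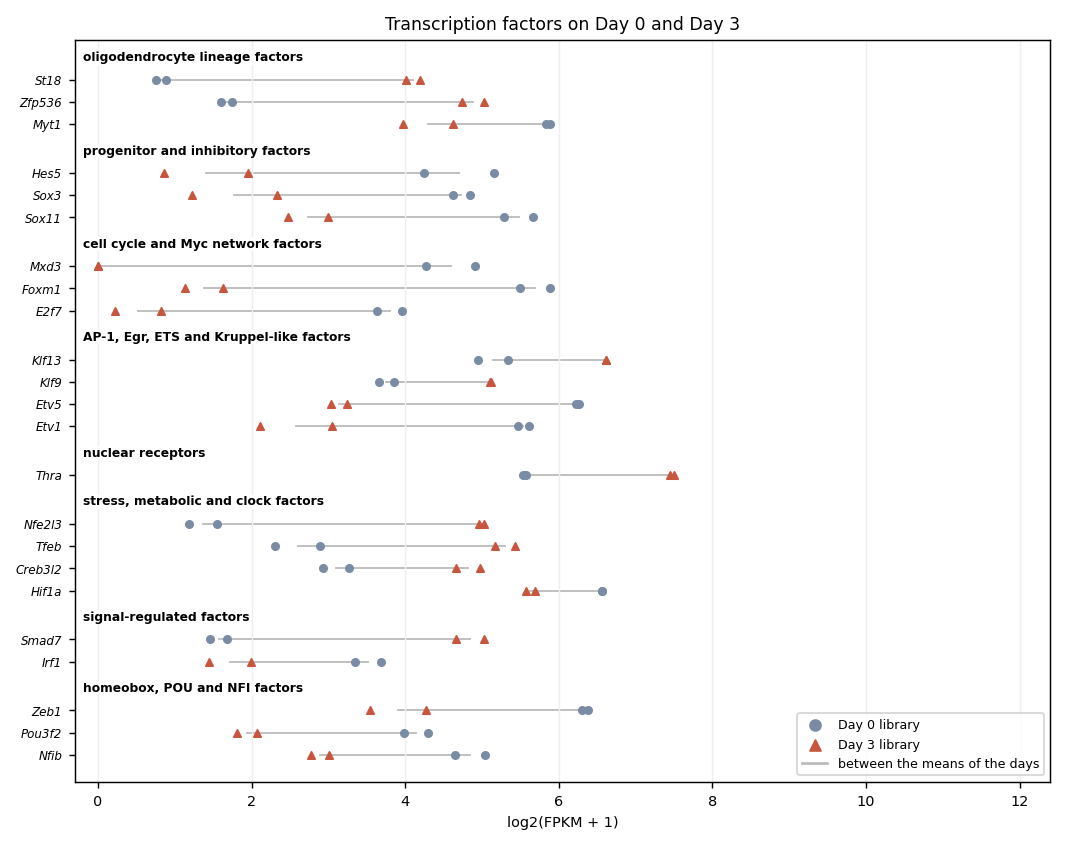
Level of 23 transcription factor genes in log2(FPKM + 1) in each Day 0 library (circles) and each Day 3 library (triangles), with a line between the means of the days. The 23 are those named by the rule that kept their call under every alternative, and 9 lie to the right on Day 3 and 14 to the left. The days do not overlap because the rule required it.

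Of 312 receptors and channels tested, 51 were called higher and 111 lower, or 63 and 84 with median ratio scaling. Among the receptor tyrosine kinases, 6 of 30 members tested were called higher and 11 lower (7 and 9 by median ratio, at least 6 and 8 with 1 library out). *Pdgfra*, the receptor of the mitogen that was withdrawn, read 490.3 and 396 FPKM on Day 0 and 29.2 and 6.53 FPKM on Day 3 (-4.87 ± 1.00, adjusted p = 0.00622). On the log2 scale its Day 3 libraries differed more from each other than its Day 0 libraries. *Ntrk3*, the neurotrophin-3 receptor gene, fell from 23.4 and 27.8 FPKM to 2.87 and 2.88 FPKM (-2.77 ± 0.27, adjusted p = 0.000221). *Fgfr2*, the FGF receptor of maturing OLs (chromosome 7, 130162451 to 133123350 on the minus strand of GRCm38), read 2.01 and 2.04 FPKM on Day 0 and 36.6 and 41.4 FPKM on Day 3 (3.72 ± 0.28, adjusted p = 8.42e-05). *Ephb1*, an ephrin-B receptor, read 4.61 and 7.18 FPKM on Day 0 and 90.4 and 89.7 FPKM on Day 3 (3.75 ± 0.45, adjusted p = 0.000496). *Aatk*, an apoptosis-associated kinase, read 26.7 and 25.2 FPKM on Day 0 and 222 and 214 FPKM on Day 3 (3.02 ± 0.18, adjusted p = 5.22e-05). On Day 3 *Fgfr2* and *Ephb1* were above *Pdgfra* in both libraries, and on Day 0 far below it.

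Of the G protein-coupled receptors, 8 of 60 members tested were called higher and 18 lower (10 and 13 by median ratio, at least 6 and 12 with 1 library out). The lipid receptors named here did not all change in the same direction. *Lpar1*, a lysophosphatidic acid receptor gene, read 0.194 and 1.45 FPKM on Day 0 and 61.9 and 68.4 FPKM on Day 3 (5.27 ± 0.45, adjusted p = 0.000132). *S1pr5*, the sphingosine 1-phosphate receptor gene of mature OLs, read 0.261 and 0.327 FPKM on Day 0 and 22.8 and 52.7 FPKM on Day 3 (4.79 ± 0.67, adjusted p = 0.00105). *S1pr2*, another receptor of that lipid, read 10.4 and 10.4 FPKM on Day 0 and 1.63 and 0.371 FPKM on Day 3 (-2.59 ± 0.44, adjusted p = 0.00252). On Day 0 the order in FPKM was *S1pr2* over *S1pr5*, and on Day 3 the reverse, with no overlap between the genes on either day. *Grm7*, a metabotropic glutamate receptor gene, rose from 0.624 and 1.17 FPKM to 27.0 and 30.7 FPKM (3.99 ± 0.29, adjusted p = 8.42e-05). *Calcrl*, the calcitonin receptor-like receptor gene, fell from 24.4 and 25.6 FPKM to 3.48 and 0.661 FPKM (-3.25 ± 0.43, adjusted p = 0.000753). *F2r*, the thrombin receptor gene, fell from 22.1 and 21.5 FPKM to 4.73 and 4.12 FPKM (-2.08 ± 0.23, adjusted p = 0.000343). *Gpr37*, a receptor of maturing OLs chosen after its values were seen, read 5.70 and 3.81 FPKM on Day 0 and 58.9 and 108 FPKM on Day 3 (3.83 ± 0.36, adjusted p = 0.000187).

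Neurotransmitter-gated channels, through which progenitors sense axons, were the receptor list with the largest share of falls: 4 of 26 members tested were called higher and 17 lower (4 and 15 by median ratio, at least 3 and 10 with 1 library out). Their median log2 fold change was -1.21. *Gria3*, an AMPA receptor subunit gene, read 29.4 and 44.7 FPKM on Day 0 and 4.41 and 4.83 FPKM on Day 3 (-2.73 ± 0.30, adjusted p = 0.000344). *P2rx7*, an ATP-gated channel gene, read 13.9 and 17.2 FPKM on Day 0 and 2.25 and 1.29 FPKM on Day 3 (-2.59 ± 0.44, adjusted p = 0.00241). *Chrna4*, a nicotinic receptor subunit gene, was at 11.0 and 53.8 FPKM on Day 0, a wide spread, and at 0.827 and 1.18 FPKM on Day 3 (-3.69 ± 0.70, adjusted p = 0.00439). In the other direction, the kainate receptor gene *Grik2* rose from 5.04 and 6.13 FPKM to 19.9 and 23.8 FPKM (1.79 ± 0.20, adjusted p = 0.000358). *Glrb*, the beta subunit of the glycine receptor, rose from 16.4 and 16.4 FPKM to 54.9 and 41.6 FPKM (1.49 ± 0.22, adjusted p = 0.00142).

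Of the voltage-gated and leak channels, 13 of 61 members tested were called higher and 17 lower (15 and 12 by median ratio, at least 12 and 8 with 1 library out). *Hcn2*, a pacemaker channel gene, read 7.34 and 4.59 FPKM on Day 0 and 76.3 and 79.4 FPKM on Day 3 (3.53 ± 0.23, adjusted p = 6.27e-05). *Fam38b*, now *Piezo2* and a mechanosensitive channel, rose from 1.40 and 0.988 FPKM to 13.2 and 16.2 FPKM (2.84 ± 0.28, adjusted p = 0.000228). A channel subunit and its partner fell together. *Kcnd2*, a subunit of A-type potassium channels, read 10.8 and 20.6 FPKM on Day 0 and 1.61 and 1.15 FPKM on Day 3 (-2.75 ± 0.40, adjusted p = 0.00128). *Kcnip3*, which binds such subunits, read 50.1 and 61.2 FPKM on Day 0 and 5.37 and 6.50 FPKM on Day 3 (-3.03 ± 0.27, adjusted p = 0.000148). *Cacng4*, an auxiliary subunit of AMPA receptors, was at 134 and 117 FPKM and then 33.5 and 15.9 FPKM (-2.38 ± 0.32, adjusted p = 0.000846).

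For the BMP, TGF-beta, Notch, Wnt and Hedgehog receptors, 2 of 28 members tested were called higher and 8 lower (4 and 6 by median ratio, at least 0 and 2 with 1 library out). *Notch1* read 64.8 and 49.6 FPKM on Day 0 and 20.6 and 16.9 FPKM on Day 3 (-1.55 ± 0.29, adjusted p = 0.00428), and its target *Hes5* is given above. *Lrp1*, an endocytic receptor gene, read 54.3 and 57.2 FPKM on Day 0 and 16.2 and 11.8 FPKM on Day 3 (-1.94 ± 0.32, adjusted p = 0.00219). Of the cytokine and death receptors, 2 of 22 members tested were called higher and 6 lower (3 and 3 by median ratio, at least 1 and 3 with 1 library out). *Tnfrsf21*, the death receptor 6 gene, rose from 76.2 and 54.6 FPKM to 198 and 148 FPKM (1.39 ± 0.19, adjusted p = 0.00102). *Tnfrsf1a*, a receptor gene of TNF, fell from 72.3 and 80.5 FPKM to 32.3 and 22.3 FPKM (-1.47 ± 0.24, adjusted p = 0.00202). The shared receptor subunit of CNTF signalling, *Il6st*, read 36.0 and 31.7 FPKM on Day 0 and 28.2 and 31.0 FPKM on Day 3 and was not called (adjusted p = 0.37). The CNTF receptor gene *Cntfr* read 24.15 and 10.61 FPKM on Day 0 and 38.54 and 55.96 FPKM on Day 3. *Cntfr* was not called either (1.47 ± 0.60, adjusted p = 0.0853), but median ratio scaling called it higher (adjusted p = 0.0489). Both genes were chosen after their values were seen.

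Guidance and adhesion receptors changed in both directions: 16 of 85 members tested were called higher and 34 lower (20 and 26 by median ratio, at least 12 and 20 with 1 library out). *Nfasc*, the neurofascin gene whose glial form sits at the paranode, read 53.9 and 50.7 FPKM on Day 0 and 809.7 and 930.2 FPKM on Day 3 (4.03 ± 0.22, adjusted p = 4.78e-05). *Unc5b*, a netrin receptor gene, read 0.444 and 0.833 FPKM on Day 0 and 33.4 and 58.0 FPKM on Day 3 (4.79 ± 0.51, adjusted p = 0.000296). *Lingo2*, a leucine-rich repeat receptor gene, rose from 2.20 and 0.915 FPKM to 13.8 and 16.4 FPKM (2.70 ± 0.29, adjusted p = 0.000303). Among the falls, *Itga8*, an integrin alpha subunit gene, read 28.6 and 17.9 FPKM on Day 0 and 0.634 and 0.722 FPKM on Day 3 (-3.82 ± 0.46, adjusted p = 0.000517). *Plxna2*, a semaphorin receptor gene, read 18.1 and 15.9 FPKM on Day 0 and 1.16 and 0.851 FPKM on Day 3 (-3.17 ± 0.32, adjusted p = 0.000233). *Ptprz1*, a receptor phosphatase with chondroitin sulfate chains, read 227 and 294 FPKM on Day 0 and 45.6 and 38.5 FPKM on Day 3 (-2.60 ± 0.22, adjusted p = 0.000132).

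**Figure D3:**
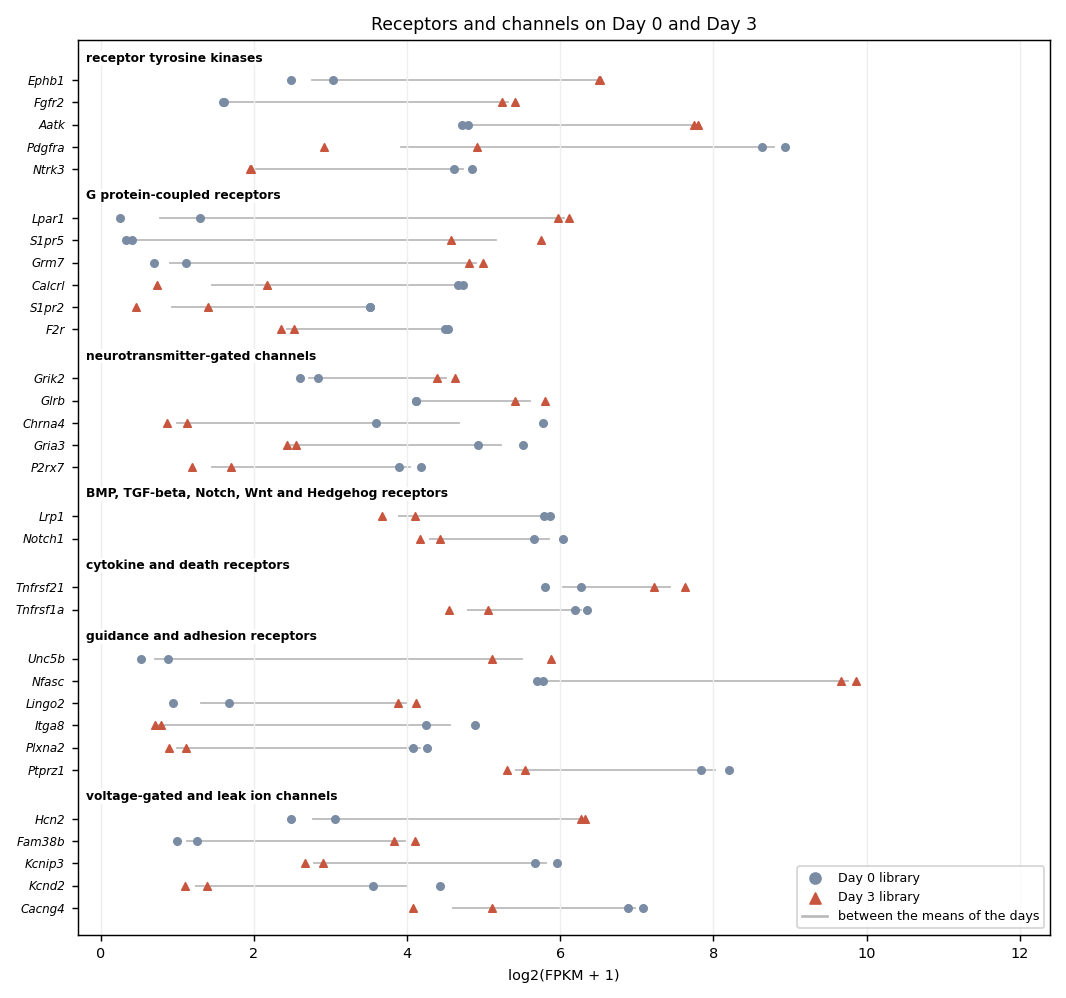
Level of 31 receptor and channel genes in log2(FPKM + 1) in each Day 0 library (circles) and each Day 3 library (triangles), with a line between the means of the days, taken from the genes chosen as for the transcription factors. On Day 3, 14 lie to the right and 17 to the left. *Lpar1* shows the longest line to the right and *Pdgfra* the longest to the left, with the widest gap between Day 3 libraries.

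Of 393 metabolic genes tested, 77 were called higher and 120 lower, and with median ratio scaling the majority turned, at 108 and 75. Over all genes tested the majority turned as well, at 2138 and 2042. For glycolysis and the pentose phosphate pathway, 7 of 38 members tested were called higher and 12 lower (9 and 7 by median ratio, at least 2 and 8 with 1 library out). Both main lactate dehydrogenase genes fell. *Ldha* read 186 and 198 FPKM on Day 0 and 77.0 and 66.2 FPKM on Day 3 (-1.42 ± 0.13, adjusted p = 0.000186). *Ldhb* read 121 and 156 FPKM on Day 0 and 39.8 and 30.8 FPKM on Day 3 (-1.95 ± 0.29, adjusted p = 0.00129). *Pkm*, pyruvate kinase, read 452 and 465 FPKM on Day 0 and 198 and 175 FPKM on Day 3 (-1.30 ± 0.13, adjusted p = 0.000259). *Eno2*, an enolase better known from neurons, was at 1.24 FPKM in both Day 0 libraries and at 12.9 and 16.7 FPKM on Day 3 (2.81 ± 0.33, adjusted p = 0.000473). *Taldo1*, transaldolase, read 161 and 116 FPKM on Day 0 and 471 and 416 FPKM on Day 3 (1.69 ± 0.18, adjusted p = 0.000301). *Aldoa*, an aldolase chosen after its values were seen, read 149.8 and 144 FPKM on Day 0 and 151 and 169 FPKM on Day 3 and was not called (adjusted p = 0.534).

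For pyruvate entry, the citric acid cycle and mitochondrial carriers, 7 of 47 members tested were called higher and 15 lower (10 and 7 by median ratio, at least 3 and 9 with 1 library out). *Pdk2*, a kinase that switches pyruvate dehydrogenase off, read 8.35 and 7.92 FPKM on Day 0 and 55.9 and 47.0 FPKM on Day 3 (2.52 ± 0.17, adjusted p = 6.27e-05). *Idh1*, the cytosolic isocitrate dehydrogenase that yields NADPH, rose from 108 and 98.3 FPKM to 300.1 and 235 FPKM (1.36 ± 0.21, adjusted p = 0.0018). *Suclg2*, a subunit of succinyl-CoA ligase, fell from 17.4 and 22.5 FPKM to 4.02 and 5.95 FPKM (-1.82 ± 0.27, adjusted p = 0.00138). *Acss1*, the mitochondrial acetyl-CoA synthetase, fell from 12.9 and 15.0 FPKM to 4.08 and 2.90 FPKM (-1.74 ± 0.24, adjusted p = 0.000862). *Slc25a5*, the ADP and ATP carrier, fell from 417 and 448 FPKM to 143 and 191 FPKM (-1.38 ± 0.17, adjusted p = 0.000522).

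The 3 lists of lipid synthesis held more rises than falls. For sterol synthesis and uptake, 12 of 31 members tested were called higher and 0 lower (16 and 0 by median ratio, at least 5 and 0 with 1 library out). At an unadjusted p under 0.05, limma put 12 higher and 1 lower. The median log2 fold change was 0.43, opposite in sign to that of all genes. *Hsd17b7*, a ketosteroid reductase of cholesterol synthesis, read 14.0 and 15.0 FPKM on Day 0 and 183 and 249 FPKM on Day 3 (3.79 ± 0.20, adjusted p = 4.78e-05), the largest log2 fold change of the list. *Ebp*, a sterol isomerase, read 10.5 and 12.6 FPKM on Day 0 and 39.0 and 46.8 FPKM on Day 3 (1.80 ± 0.35, adjusted p = 0.00481). *Npc2*, which hands cholesterol out of lysosomes, read 35.8 and 27.7 FPKM on Day 0 and 83.2 and 93.4 FPKM on Day 3 (1.46 ± 0.19, adjusted p = 0.000658). *Sqle*, squalene epoxidase, read 105 and 96.7 FPKM on Day 0 and 82.7 and 87.0 FPKM on Day 3 and was not called (adjusted p = 0.193), and it was chosen after its values were seen. For fatty acid, phospholipid and plasmalogen synthesis, 20 of 57 members tested were called higher and 10 lower (25 and 4 by median ratio, at least 14 and 3 with 1 library out). *Dgat2*, which makes triglyceride (chromosome 7, 99153658 to 99182719 on the minus strand of GRCm38), read 6.37 and 7.60 FPKM on Day 0 and 237 and 194 FPKM on Day 3 (4.76 ± 0.27, adjusted p = 4.78e-05). *Elovl7*, a fatty acid elongase, rose from 14.2 and 15.0 FPKM to 62.0 and 74.3 FPKM (2.15 ± 0.14, adjusted p = 6.34e-05). The elongase *Elovl1* rose from 31.2 and 18.8 FPKM to 79.6 and 124 FPKM (1.99 ± 0.27, adjusted p = 0.000898). *Elovl1* overlaps *Cdc20*, a falling gene, on the other strand. *Fabp7*, a brain fatty acid binding protein of progenitors, read 1420 and 1368 FPKM on Day 0 and 166 and 285 FPKM on Day 3 (-2.67 ± 0.32, adjusted p = 0.000517). *Acsl5*, an acyl-CoA synthetase, read 20.1 and 14.7 FPKM on Day 0 and 1.46 and 1.32 FPKM on Day 3 (-2.93 ± 0.26, adjusted p = 0.000151). *Fasn*, fatty acid synthase, read 165 and 154 FPKM on Day 0 and 189 and 182 FPKM on Day 3 and was not called (adjusted p = 0.275), but it was called higher by median ratio scaling (adjusted p = 0.035). It was chosen after its values were seen.

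For the sphingolipid and galactolipid enzymes, 10 of 34 members tested were called higher and 6 lower (15 and 4 by median ratio, at least 8 and 2 with 1 library out). *Fa2h*, which hydroxylates the fatty acid of myelin galactolipids, read 14.4 and 10.1 FPKM on Day 0 and 108 and 104 FPKM on Day 3 (3.03 ± 0.23, adjusted p = 8.42e-05). *Ugt8a*, which adds their galactose, read 128 and 111 FPKM on Day 0 and 577 and 655 FPKM on Day 3 (2.36 ± 0.18, adjusted p = 9.82e-05). *Sgms2*, a sphingomyelin synthase, rose from 1.01 and 1.97 FPKM to 18.8 and 17.1 FPKM (2.96 ± 0.41, adjusted p = 0.000967). On the ganglioside branch the named genes fell. *B4galt5*, which makes lactosylceramide, read 17.1 and 13.6 FPKM on Day 0 and 3.49 and 3.97 FPKM on Day 3 (-1.78 ± 0.25, adjusted p = 0.00111). *St3gal5*, which makes the ganglioside GM3 from it, read 12.5 and 12.0 FPKM on Day 0 and 2.87 and 0.467 FPKM on Day 3 (-2.48 ± 0.42, adjusted p = 0.00245).

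Nucleotide synthesis was the metabolic list with the largest share of falls: 2 of 50 members tested were called higher and 32 lower (2 and 26 by median ratio, at least 1 and 21 with 1 library out). Its median log2 fold change was -0.95. *Rrm2*, the ribonucleotide reductase subunit of dividing cells, read 108 and 96.1 FPKM on Day 0 and 4.63 and 3.83 FPKM on Day 3 (-4.31 ± 0.25, adjusted p = 4.78e-05). *Rrm1*, the large subunit, read 110.4 and 91.5 FPKM on Day 0 and 11.5 and 10.7 FPKM on Day 3 (-3.07 ± 0.20, adjusted p = 6.27e-05). *Rrm2b*, the subunit that serves cells outside S phase, rose from 5.49 and 6.14 FPKM to 14.8 and 17.4 FPKM (1.32 ± 0.22, adjusted p = 0.00224). It was above *Rrm2* in both Day 3 libraries and below it in both Day 0 libraries. *Tk1*, the thymidine kinase of S phase, was at 34.8 and 25.6 FPKM on Day 0 and 0 and 1.52 FPKM on Day 3 (-4.28 ± 0.64, adjusted p = 0.00143). It overlaps *Afmid* on the other strand.

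For amino acid, one-carbon and polyamine metabolism, 8 of 57 members tested were called higher and 24 lower (13 and 15 by median ratio, at least 6 and 14 with 1 library out). *Gamt*, which completes creatine synthesis, read 3.45 and 5.18 FPKM on Day 0 and 55.4 and 116 FPKM on Day 3 (3.95 ± 0.34, adjusted p = 0.000136). *Abat*, which breaks down GABA, read 26.6 and 31.1 FPKM on Day 0 and 105 and 90.0 FPKM on Day 3 (1.73 ± 0.15, adjusted p = 0.000151). Polyamine genes parted. *Sms*, the spermine synthase, fell from 38.6 and 32.3 FPKM to 4.62 and 3.71 FPKM (-2.82 ± 0.36, adjusted p = 0.000678). *Sat1*, which starts polyamine breakdown, rose from 47.9 and 30.0 FPKM to 126 and 93.6 FPKM (1.49 ± 0.26, adjusted p = 0.0028). *Slc7a5*, an importer of large neutral amino acids, read 58.6 and 42.5 FPKM on Day 0 and 6.52 and 6.54 FPKM on Day 3 (-2.76 ± 0.27, adjusted p = 0.00022). *Shmt1*, a serine hydroxymethyltransferase, was at 15.5 and 13.0 FPKM on Day 0 and 0 and 0.505 FPKM on Day 3 (adjusted p = 0.000435). It overlaps *Smcr8* on the other strand.

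For fatty acid oxidation and ketone metabolism, 8 of 35 members tested were called higher and 8 lower (13 and 4 by median ratio, at least 6 and 3 with 1 library out). *Pex5l* was listed as a relative of the peroxisomal import receptor and does not encode an enzyme of fatty acid oxidation. *Pex5l* read 1.54 and 1.66 FPKM on Day 0 and 39.4 and 46.3 FPKM on Day 3 (4.07 ± 0.38, adjusted p = 0.000173). *Hadh*, a dehydrogenase of beta oxidation, rose from 14.0 and 19.9 FPKM to 51.2 and 60.7 FPKM (1.68 ± 0.23, adjusted p = 0.000961). *Acot7*, an acyl-CoA thioesterase, rose from 31.9 and 30.0 FPKM to 82.8 and 96.4 FPKM (1.50 ± 0.19, adjusted p = 0.000578). *Acads*, the short-chain acyl-CoA dehydrogenase, fell from 10.8 and 13.1 FPKM to 3.92 and 2.23 FPKM (-1.69 ± 0.27, adjusted p = 0.00195). For the redox and glutathione enzymes, 3 of 44 members tested were called higher and 13 lower (5 and 8 by median ratio, at least 2 and 7 with 1 library out), and 5 were called higher with the replicate number as a block. The glutathione peroxidases named here moved in opposite directions. *Gpx3*, the secreted form, read 34.4 and 29.0 FPKM on Day 0 and 1.21 and 2.06 FPKM on Day 3 (-3.65 ± 0.41, adjusted p = 0.000377). *Gpx4*, the form that repairs lipid peroxides, read 116 and 73.1 FPKM on Day 0 and 222 and 182 FPKM on Day 3 (1.12 ± 0.23, adjusted p = 0.00634). *Cat*, catalase, rose from 46.8 and 44.4 FPKM to 93.1 and 85.9 FPKM (0.96 ± 0.12, adjusted p = 0.000663). The peroxiredoxin gene *Prdx4* fell from 32.8 and 24.2 FPKM to 3.76 and 7.49 FPKM (-2.20 ± 0.42, adjusted p = 0.00433).

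**Figure D4:**
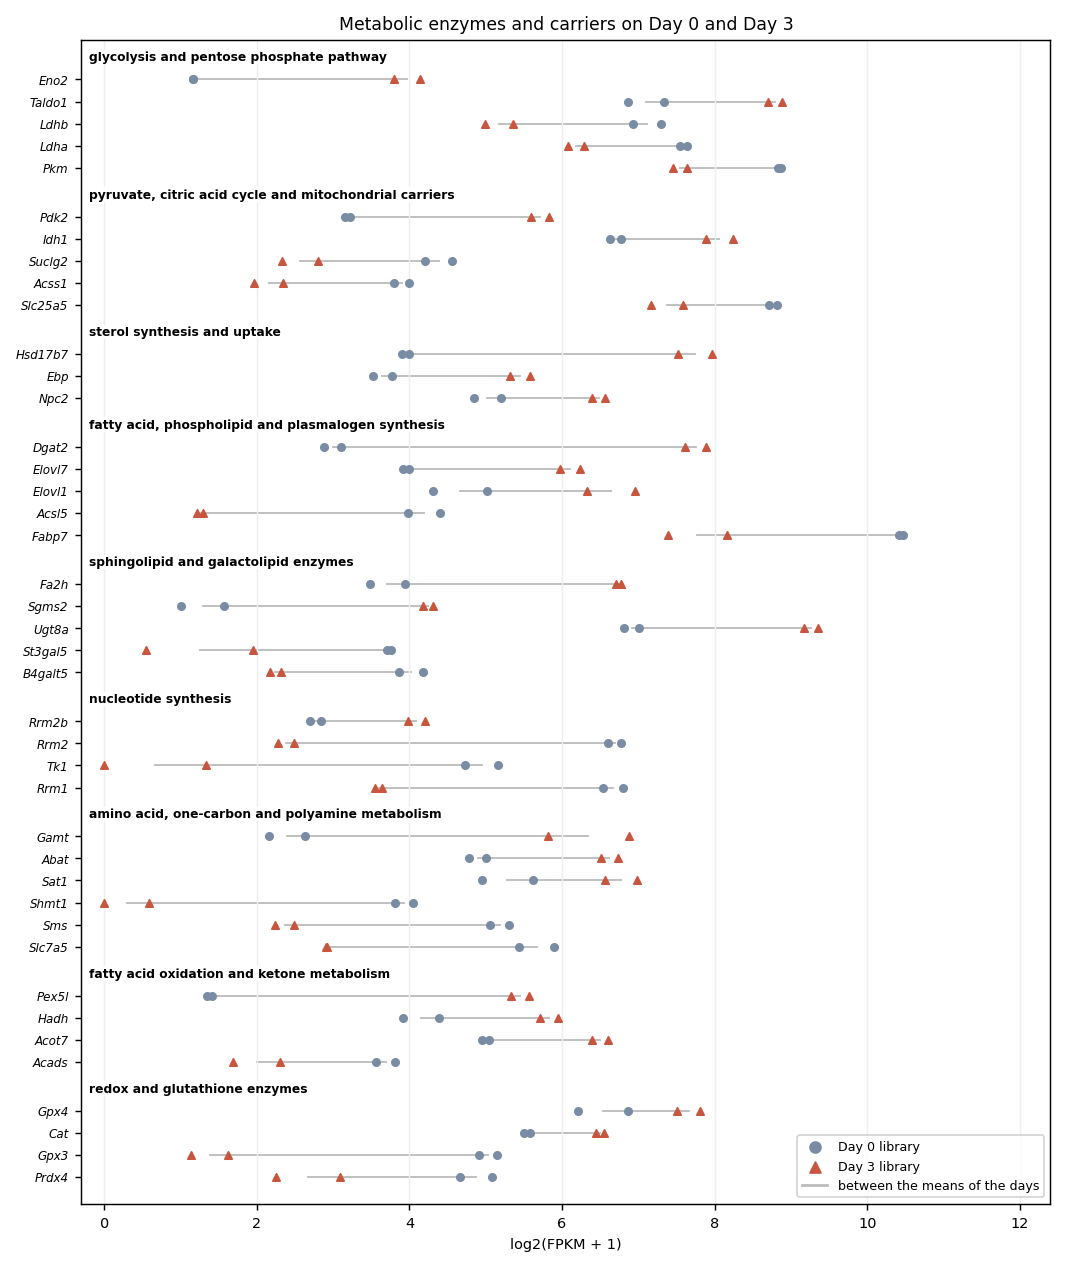
Level of 41 metabolic genes in log2(FPKM + 1) in each Day 0 library (circles) and each Day 3 library (triangles), with a line between the means of the days, chosen as for the transcription factors. On Day 3, 22 lie to the right and 19 to the left, and *Rrm2* and *Dgat2* show the longest lines in opposite directions.

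Of 399 cytoskeletal genes tested, 93 were called higher and 130 lower, and with median ratio scaling the majority turned, at 125 and 99. Over all genes tested the majority turned as well, at 2138 and 2042. Of the tubulins and their folding factors, 3 of 20 members tested were called higher and 11 lower (4 and 9 by median ratio, at least 2 and 7 with 1 library out). Their median log2 fold change was -0.74. *Tubb4a*, the beta tubulin of myelinating cells, read 313 and 292 FPKM on Day 0 and 2980 and 2131 FPKM on Day 3 (3.06 ± 0.27, adjusted p = 0.00014). *Tuba1b*, an alpha tubulin abundant in dividing cells, read 1184 and 1034 FPKM on Day 0 and 209 and 129.8 FPKM on Day 3 (-2.74 ± 0.27, adjusted p = 0.000202). *Tubb6* read 31.8 and 46.7 FPKM on Day 0 and 4.73 and 4.19 FPKM on Day 3 (-2.86 ± 0.32, adjusted p = 0.000355). *Tubb5*, another beta tubulin chosen after its values were seen, fell from 738 and 672 FPKM to 299.5 and 172 FPKM (-1.63 ± 0.24, adjusted p = 0.001345). On Day 3 *Tubb4a* was above *Tubb5*, and on Day 0 below it, in every library. Alpha tubulin genes are nearly alike in sequence, so reads may have been split among them in ways that cannot be seen here.

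Of the microtubule-binding and regulatory proteins, 16 of 60 members tested were called higher and 20 lower (17 and 18 by median ratio, at least 13 and 13 with 1 library out). *Mtap7* (now *Map7*), which recruits kinesin-1 to microtubules, read 2.19 and 2.32 FPKM on Day 0 and 27.9 and 48.9 FPKM on Day 3 (3.55 ± 0.45, adjusted p = 0.0006). *Mtap1b* (now *Map1b*), a large microtubule-associated protein, read 10.8 and 15.1 FPKM on Day 0 and 161 and 141 FPKM on Day 3 (3.45 ± 0.31, adjusted p = 0.000154). *Stmn4*, a stathmin family gene, read 11.1 and 5.29 FPKM on Day 0 and 84.1 and 91.5 FPKM on Day 3 (3.35 ± 0.35, adjusted p = 0.000296). *Mtap2* (now *Map2*), chosen after its values were seen, went the other way, from 188 and 202 FPKM to 51.0 and 28.2 FPKM (-2.33 ± 0.27, adjusted p = 0.000415). The named falls were spindle proteins. *Tpx2*, which nucleates spindle microtubules, fell from 98.9 and 76.6 FPKM to 2.32 and 3.26 FPKM (-4.55 ± 0.53, adjusted p = 0.000442). *Nusap1*, which binds spindle microtubules, fell from 84.5 and 69.5 FPKM to 3.20 and 1.09 FPKM (-4.71 ± 0.48, adjusted p = 0.000249). *Kif2c*, a kinesin that takes microtubules apart, fell from 52.3 and 33.7 FPKM to 0.324 and 0.369 FPKM (-5.00 ± 0.58, adjusted p = 0.000422).

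Of the kinesins and dyneins, 19 of 63 members tested were called higher and 16 lower (24 and 14 by median ratio, at least 9 and 14 with 1 library out). *Kif21a*, a kinesin of interphase microtubules, read 6.72 and 4.05 FPKM on Day 0 and 50.6 and 52.2 FPKM on Day 3 (3.07 ± 0.22, adjusted p = 7.75e-05), and *Kif13b*, a transport kinesin, rose from 4.54 and 5.38 FPKM to 13.2 and 18.4 FPKM (1.49 ± 0.28, adjusted p = 0.0041). *Kif19a*, a motor that shortens microtubules in cilia, read 21.6 and 6.41 FPKM on Day 0 and 80.1 and 57.8 FPKM on Day 3 (2.41 ± 0.45, adjusted p = 0.00402). *Dynll2*, a dynein light chain chosen after its values were seen, read 129.8 and 119.5 FPKM on Day 0 and 422 and 281 FPKM on Day 3 (1.46 ± 0.20, adjusted p = 0.000956). The named falls were mitotic motors. *Kif11*, which pushes spindle poles apart, read 82.9 and 55.3 FPKM on Day 0 and 0.761 and 1.30 FPKM on Day 3 (-5.09 ± 0.44, adjusted p = 0.00014). *Kif20a*, a motor of cytokinesis, read 50.2 and 38.0 FPKM on Day 0 and 1.67 and 0 FPKM on Day 3 (-4.77 ± 0.59, adjusted p = 0.000552). *Kif22*, which binds chromosomes, read 55.9 and 35.1 FPKM on Day 0 and 2.67 and 0.506 FPKM on Day 3 (-4.27 ± 0.47, adjusted p = 0.000328).

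Promoter windows of the falling motors were then read for short motifs, which the selection of genes did not use. Windows from 250 bases before to 50 bases after the start of each gene (RefSeq, GRCm38.p6) were searched on both strands for TTTGAA, the letters of the cell cycle homology region to which the DREAM repressor complex binds. A window was at hand for 12 of the 14 kinesin and dynein genes called lower under each scaling, a set chosen after its values were seen. Of these, 9 of the 12 held the letters, against 18.2% of all 27026 windows. In the list of mitosis and DNA replication, 25 of 50 windows held TTTGAA, and 34 of the 50 held CCAAT (68.0%), found in 38.0% of all windows. The 4 other motifs searched, TTCCCGCC of E2F, CACGTG, TGATGCAA and ATCAAAG, were in 8.0%, 8.0%, 0 and 4.0% of the 50, against 2.27%, 7.24%, 0.929% and 3.76% of all windows. All windows include those of genes not tested here, and nothing is read from the shares of these 4 motifs. TTTGAA and ATCAAAG read on the other strand can share bases. A match is a description and not a binding site. Shares over all genes tested, called higher or called lower were void, because windows were at hand for 79.8%, 78.2% and 79.6% of them, under the 80% such a count needs. The stretches below are 30 bases each, written 5′ to 3′ along the gene, with TTTGAA or its complement in capitals. They come from 4 falling motor genes in which the letters lie before the RefSeq start. *Kif2c* belongs to the microtubule-binding list and is not among the 12. That position does not stand for all of the 9. In *Kif23*, *Kif18b*, *Kif4*, *Kifc1* and *Kif20b* the match taken lay after the start. The GENCODE models of *Kif2c* and *Kif15* begin further upstream and include the stretch.
Kif11: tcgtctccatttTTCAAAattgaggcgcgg
Kif2c: ccaggctgctctTTCAAAcctgagtaatgc
Kif22: ccaacctggcaaTTCAAAagcctgaaagtg
Kif15: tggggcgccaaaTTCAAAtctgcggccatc
They lie at chr19:37376351-37376380 on the plus strand, chr4:117178858-117178887 on the minus strand, chr7:127042618-127042647 on the minus strand and chr9:122951050-122951079 on the plus strand.

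For actin and actin turnover, 18 of 95 members tested were called higher and 26 lower (29 and 18 by median ratio, at least 12 and 14 with 1 library out). The majority turned with the scaling. *Coro2b*, a coronin of actin filaments, read 1.99 and 1.81 FPKM on Day 0 and 42.7 and 81.8 FPKM on Day 3 (4.38 ± 0.54, adjusted p = 0.000566). *Fmnl2*, a formin, rose from 32.9 and 30.2 FPKM to 177 and 192 FPKM (2.51 ± 0.18, adjusted p = 8.42e-05). *Basp1*, a membrane protein that gathers actin at growing tips, read 465 and 405 FPKM on Day 0 and 114 and 32.1 FPKM on Day 3 (-2.82 ± 0.49, adjusted p = 0.00273). *Mtss1*, which bends membrane at the actin cortex, read 38.7 and 39.2 FPKM on Day 0 and 7.62 and 5.88 FPKM on Day 3 (-2.38 ± 0.25, adjusted p = 0.000276). *Add2*, an adducin that caps filaments, fell from 21.1 and 19.2 FPKM to 3.12 and 1.68 FPKM (-2.67 ± 0.41, adjusted p = 0.00168). *Actb* itself, chosen after its values were seen, read 2195 and 2296 FPKM on Day 0 and 1421 and 1083 FPKM on Day 3 (-0.85 ± 0.22, adjusted p = 0.0152). By median ratio scaling it was not called (adjusted p = 0.0927). It was not called without Day 0 replicate 1, Day 0 replicate 2 or Day 3 replicate 2 either (adjusted p = 0.0834, 0.101 and 0.0857).

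For the myosins and tropomyosins, 4 of 28 members tested were called higher and 16 lower (6 and 10 by median ratio, at least 4 and 9 with 1 library out). *Tpm1*, a tropomyosin of stress fibres, read 150.4 and 155 FPKM on Day 0 and 22.4 and 21.7 FPKM on Day 3 (-2.73 ± 0.15, adjusted p = 4.78e-05). *Myh10*, nonmuscle myosin IIB, read 48.2 and 53.6 FPKM on Day 0 and 7.42 and 6.84 FPKM on Day 3 (-2.67 ± 0.19, adjusted p = 7.99e-05). *Myo5b*, a motor of recycling vesicles, fell from 29.9 and 37.5 FPKM to 3.03 and 2.35 FPKM (-3.23 ± 0.57, adjusted p = 0.00307). The named rises were unconventional myosins. *Myo1d*, a membrane-bound motor, was at 0 and 0.152 FPKM on Day 0 and 14.2 and 29.4 FPKM on Day 3 (4.33 ± 0.51, adjusted p = 0.000448). *Myo1e*, of the same class, rose from 2.77 and 2.97 FPKM to 17.1 and 34.6 FPKM (2.71 ± 0.47, adjusted p = 0.00285). *Myo18a*, a Golgi-associated myosin, rose from 18.2 and 15.8 FPKM to 96.4 and 110.2 FPKM (2.53 ± 0.16, adjusted p = 5.49e-05).

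For intermediate filaments, spectrins, ankyrins and plakins, 8 of 26 members tested were called higher and 11 lower (9 and 9 by median ratio, at least 6 and 7 with 1 library out). *Nes*, the progenitor filament nestin, read 50.1 and 41.1 FPKM on Day 0 and 11.8 and 6.13 FPKM on Day 3 (-2.28 ± 0.32, adjusted p = 0.00105). *Lmnb1*, the nuclear lamin B1, read 159 and 146 FPKM on Day 0 and 13.5 and 8.08 FPKM on Day 3 (-3.74 ± 0.30, adjusted p = 0.000121). *Vim*, vimentin, chosen after its values were seen, fell from 1980 and 1617 FPKM to 488 and 450.2 FPKM (-1.93 ± 0.24, adjusted p = 0.000607). *Bfsp2*, a filament protein first known from the lens, read 7.06 and 5.19 FPKM on Day 0 and 75.3 and 57.8 FPKM on Day 3 (3.25 ± 0.23, adjusted p = 7.75e-05). The genes of the membrane skeleton named here moved in both directions. *Ank3*, ankyrin G, rose from 17.1 and 19.8 FPKM to 58.1 and 75.8 FPKM (1.79 ± 0.17, adjusted p = 0.000198). *Spnb2*, now *Sptbn1* and beta-II spectrin, rose from 66.7 and 73.7 FPKM to 209 and 188 FPKM (1.49 ± 0.13, adjusted p = 0.000154). *Epb4.1*, protein 4.1R of the same skeleton, read 78.3 and 91.2 FPKM on Day 0 and 12.7 and 5.42 FPKM on Day 3 (-3.19 ± 0.32, adjusted p = 0.000228).

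Septins form filaments beneath membranes, including that of the mature sheath. Of these, 1 of 11 members tested were called higher and 6 lower (3 and 4 by median ratio, at least 1 and 4 with 1 library out). *Sept4* (chromosome 11, 87568903 to 87590539 on the plus strand of GRCm38) read 4.38 and 3.49 FPKM on Day 0 and 148 and 130.2 FPKM on Day 3 (4.83 ± 0.24, adjusted p = 4.78e-05). *Sept8* fell from 113 and 113 FPKM to 30.3 and 20.6 FPKM (-2.14 ± 0.25, adjusted p = 0.000438). *Sept11* fell from 62.6 and 63.1 FPKM to 30.9 and 17.3 FPKM (-1.40 ± 0.24, adjusted p = 0.00262), and *Sept3* from 50.2 and 48.1 FPKM to 24.4 and 16.3 FPKM (-1.25 ± 0.20, adjusted p = 0.00172). The core subunits *Sept2* and *Sept7*, chosen after their values were seen, were the highest septins on both days. *Sept2* read 168 and 167 FPKM on Day 0 and 183 and 176 FPKM on Day 3 and was not called (adjusted p = 0.533), nor was *Sept7* with 251 and 241 FPKM on Day 0 and 295 and 342 FPKM on Day 3 (adjusted p = 0.0828). Median ratio scaling called both higher (adjusted p of 0.03 and 0.00981), and for *Sept7* equal sum scaling and quantile normalization did too (adjusted p of 0.0303 and 0.011).

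*Cdc42ep2*, an effector of CDC42, was at 0.437 and 0 FPKM on Day 0 and 19.7 and 44.8 FPKM on Day 3 (4.68 ± 0.87, adjusted p = 0.00391). *Plekhg1*, an exchange factor, read 0.886 and 0.886 FPKM on Day 0 and 33.3 and 50.1 FPKM on Day 3 (4.47 ± 0.29, adjusted p = 6.27e-05). The exchange factor *Plekhg3* read 0.263 and 0.165 FPKM on Day 0 and 9.07 and 19.6 FPKM on Day 3 (3.57 ± 0.50, adjusted p = 0.00104). *Plekhg3* overlaps *Sptb* on the other strand. *Rhob*, a small GTPase, rose from 43.6 and 39.5 FPKM to 109.5 and 138 FPKM (1.54 ± 0.21, adjusted p = 0.000809). *Arhgef10*, an exchange factor, rose from 12.2 and 11.9 FPKM to 56.8 and 67.7 FPKM (2.27 ± 0.18, adjusted p = 9.85e-05). Both were chosen after their values were seen. The named falls were regulators of cytokinesis. *Racgap1* read 136 and 107 FPKM on Day 0 and 4.38 and 3.92 FPKM on Day 3 (-4.56 ± 0.51, adjusted p = 0.000355). *Ect2*, the exchange factor it works with, read 35.0 and 27.6 FPKM on Day 0 and 2.07 and 1.30 FPKM on Day 3 (-3.59 ± 0.59, adjusted p = 0.00223). *Arhgap19*, a GTPase-activating protein, fell from 25.5 and 17.4 FPKM to 1.45 and 0.619 FPKM (-3.47 ± 0.35, adjusted p = 0.000228). *Anln*, an actin-binding protein of the cleavage furrow chosen after its values were seen, read 21.9 and 15.9 FPKM on Day 0 and 3.72 and 3.08 FPKM on Day 3 (-2.17 ± 0.33, adjusted p = 0.00164).

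**Figure D5:**
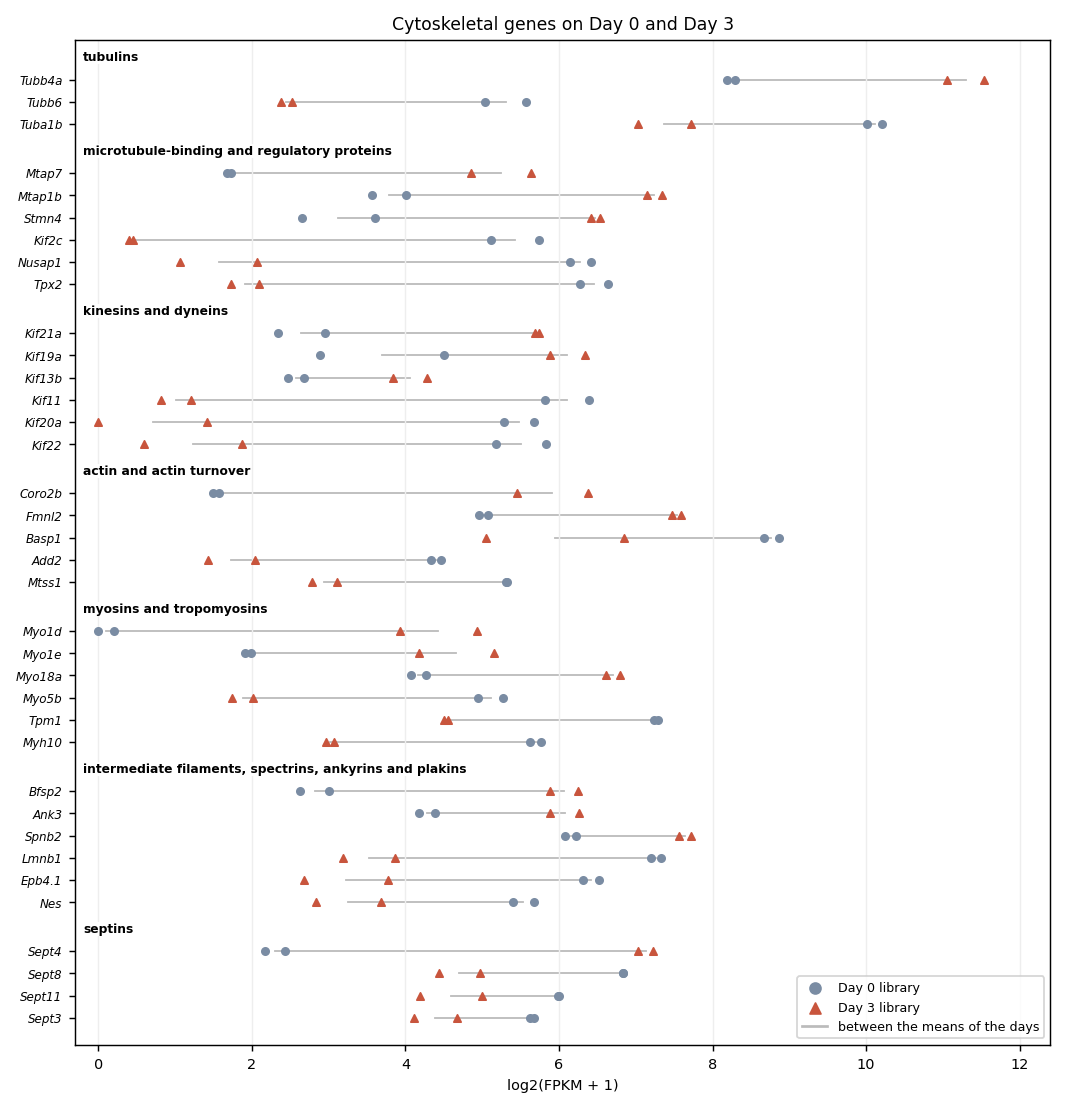
Level of 36 cytoskeletal genes in log2(FPKM + 1) in each Day 0 library (circles) and each Day 3 library (triangles), with a line between the means of the days, taken from the genes chosen as for the transcription factors. On Day 3, 16 lie to the right and 20 to the left, with *Kif2c*, *Kif20a* and *Kif11* nearest the left edge on Day 3 and *Tubb4a* at the far right.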

How the data were processed

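Stranded mRNA libraries (TruSeq Stranded mRNA for NeoPrep) of mouse OPCs on 4 days, 2 per day, were sequenced on a MiSeq (paired-end, 75 nt). OmicSoft ArrayStudio was the authors' software, and the deposited table gives FPKM per gene and library. The submitters' notes name the build mm10, and the aligner's settings and the gene model are not given in the sources used here. The study states DESeq2, which needs counts and was not run.

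All 8 libraries were fitted with limma 3.58.1 in R 4.3.3 (lmFit, eBayes with a trend) on log2(FPKM + 1), with the day as a factor, and Day 3 minus Day 0 was adjusted by Benjamini-Hochberg over 12208 genes. Calls had an adjusted p under 0.05. Named genes were, per list, the 3 largest rises and 3 largest falls called under 4 scalings, with replicates that did not overlap and an average of at least 10 FPKM on Day 0 or Day 3. Because the rule takes both rises and falls, named relatives that moved apart do not describe their whole family. The 10 largest changes of the table were left without an account. Of the 169 genes so named, the text describes mainly the 139 that kept their call under every alternative. The lists were drawn up from general knowledge, and the genes and lists were chosen with earlier results of these data known. Older symbols were matched through RefSeq synonyms, coordinates came from GENCODE M21 (12079 of the tested genes matched), and promoter windows from RefSeq (GRCm38.p6). Depth was estimated from FPKM steps of genes with 1 transcript, where 51.3 to 62.0% of low values were whole fragments within 0.03 against 1.8 to 2.6% at other depths. Deviations of libraries with the same replicate number correlated at 0.16 to 0.29 over the 6 pairs of days. The labels give these numbers but do not say that such libraries share a cell isolation. A fit with the replicate number as a block was therefore run as an alternative. Counts, standard errors and adjusted p in the text come from the fit without a block unless stated otherwise. The fit was tested on simulated data. Python 3.11.15 was used for the other steps. A few genes and 1 list are not reported here. Other alternatives are given in the closing section.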

Additional observations from a re-analysis of the deposited data

How the results depend on the processing

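The counts of 1460 genes higher and 3207 lower on Day 3 depended on scaling and on the Day 0 libraries. Median ratio scaling gave 2042 lower, and with the replicate block added, which was chosen after seeing the data, 2339 higher. Leaving out 1 library at a time gave 965 to 1440 higher and 1799 to 3108 lower, and 178 to 245 higher and 262 to 425 lower over the listed genes. The lowest counts came without a Day 0 library, where a lone Day 0 sample is assumed to vary like the other days. The replicate block alone gave 1617 higher and 3551 lower and lost no call of the 169 named genes, and beyond the lists of nuclear receptors, redox enzymes and astrocyte markers it moved no list's count by over 1.5 times. A pseudocount of 0.1, no filter (15267 genes), a filter of 10 FPKM in 1 library (8202 genes), equal sum scaling, quantile normalization, a fit of only Day 0 and Day 3 and eBayes without a trend kept both counts within 1.5 times. Of the calls, 1458 higher and 1866 lower held under all 4 scalings. No named gene changed sign under any alternative, and 30 lost their call without at least 1 library. With 950000 to 1530000 fragments a library, falls to under 1 FPKM cannot be told from absence, and every p rests on a spread shared by the 4 days. FPKM are shares of a library, not amounts per cell.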

Other observations

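Several strong changes fell outside the lists, and these genes were chosen after their values were seen. *Sirt2*, a deacetylase that acts on tubulin and is abundant in myelin, read 173 and 190.0 FPKM on Day 0 and 2532 and 2050 FPKM on Day 3 (log2 fold change 3.65 ± 0.26, adjusted p = 8.02e-05). The choline transporter gene *Slc44a1* read 44.1 and 28.6 FPKM on Day 0 and 299 and 281 FPKM on Day 3 (2.99 ± 0.19, adjusted p = 6.27e-05). *Abca2*, a lipid transporter of lysosomes, was at 15.4 FPKM in both Day 0 libraries and at 170.0 and 204 FPKM on Day 3 (3.52 ± 0.20, adjusted p = 4.78e-05). Semaphorin genes were among the rises. *Sema6a*, a guidance ligand, read 33.6 and 40.3 FPKM on Day 0 and 292 and 401 FPKM on Day 3 (3.18 ± 0.25, adjusted p = 9.85e-05). *Sema4d* read 8.94 and 11.2 FPKM on Day 0 and 82.9 and 84.2 FPKM on Day 3 (2.94 ± 0.25, adjusted p = 0.000128). *Sema5a* and *Sema6d* had log2 fold changes of 3.56 ± 0.36 and 2.66 ± 0.30 (adjusted p of 0.000228 and 0.000397). *Adamts4*, a protease that cuts proteoglycans, read 8.52 and 4.44 FPKM on Day 0 and 144 and 184 FPKM on Day 3 (4.50 ± 0.33, adjusted p = 8.42e-05). The lysosomal protease *Lgmn* read 20.5 and 16.1 FPKM on Day 0 and 128 and 134 FPKM on Day 3 (2.78 ± 0.16, adjusted p = 4.78e-05). *Padi2*, which converts arginine in proteins to citrulline, read 0.959 and 0.343 FPKM on Day 0 and 38.5 and 45.9 FPKM on Day 3 (4.73 ± 0.40, adjusted p = 0.00013).

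Among the falls outside the lists were ligand and cell cycle genes. *Bmp7*, a BMP ligand, read 92.8 and 95.7 FPKM on Day 0 and 3.73 and 1.59 FPKM on Day 3 (-4.77 ± 0.37, adjusted p = 9.42e-05). *Dll1*, a Notch ligand gene, read 34.0 and 36.6 FPKM on Day 0 and 7.76 and 2.74 FPKM on Day 3 (-2.67 ± 0.39, adjusted p = 0.0013), and *Dll3* of the same family read 27.1 and 49.0 FPKM on Day 0 and 2.54 and 0 FPKM on Day 3 (-4.32 ± 0.78, adjusted p = 0.00338). *Ccnd1*, the cyclin that growth factors induce, read 124 and 158 FPKM on Day 0 and 11.3 and 9.62 FPKM on Day 3 (-3.62 ± 0.38, adjusted p = 0.000294). *Cdkn2c*, an inhibitor of the kinases that cyclin D binds, also fell, from 44.8 and 39.0 FPKM to 2.49 and 3.77 FPKM (-3.39 ± 0.46, adjusted p = 0.00084). The long noncoding RNA *H19* read 448 and 691 FPKM on Day 0 and 113 and 37.9 FPKM on Day 3 (-3.06 ± 0.52, adjusted p = 0.0026). *Dpysl3*, a collapsin response mediator gene, read 256 and 268 FPKM on Day 0 and 34.8 and 21.0 FPKM on Day 3 (-3.23 ± 0.30, adjusted p = 0.000171).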
